A study of Mus musculus with 6 samples.

Results

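The genes described here encode the lysosome: the proton pump that acidifies it, the enzymes and carrier proteins of its lumen, and the proteins of its membrane. They are 41 of the 55291 genes in the deposited table, matched by gene symbol, and all 41 were found and passed the filter on low counts. They comprise 16 subunits of the vacuolar proton pump, 16 hydrolases and luminal proteins, 8 membrane proteins, and Tfeb, a transcription factor of lysosomal genes. RNA was sequenced from material flushed out of the femurs of mice aged 6 to 8 weeks, from 3 wild-type (WT) mice and 3 P2rx7 knockout mice, with 1 library per mouse. P2rx7 encodes a cation channel opened by extracellular ATP. The labels used here do not give the strain, the sex or the exons that the knockout allele lacks. P2rx7 itself was at 60.5, 60.4 and 62.7 CPM in WT 1 to 3 against 39.4, 38.4 and 37.5 CPM in knockouts A to C, where CPM is TMM-scaled CPM, the count of a gene relative to the library's effective size. All knockouts lay below all wild types, at 62.8% of the wild-type mean (log2 fold change -0.67 ± 0.05 (SE), adjusted p = 0.0109, edgeR).

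The vacuolar proton pump is a rotary machine with a V1 sector on the cytosolic face, which splits ATP, and a V0 sector in the membrane, through which protons pass. The acid it makes activates the cathepsins and glycosidases of the lumen, while heavily glycosylated proteins such as Lamp1 and Lamp2 line the membrane. Macrophages, which take up and digest cells and debris in marrow, are rich in lysosomes. Osteoclasts place the same pump in the membrane that faces bone and dissolve mineral with it.

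The tissue is labelled bone marrow, yet transcripts that mark several blood lineages were nearly missing. Of 7 erythroid markers, 0 passed the filter: the haemoglobin gene Hbb-bs had at most 5 counts in any library, and Slc4a1, the anion exchanger of red cells, had 0 in every library. Of 6 B lineage markers 1 passed, and the T cell gene Cd3e had 0 counts throughout. Macrophage markers were abundant, with a summed level of 9939.7 to 10557 CPM in wild types and 10579 to 11860 CPM in knockouts. The summed level of stromal and osteoblast markers was 17685 to 21343 CPM in wild types and 19225 to 20436 CPM in knockouts. Most of this sum came from Col1a1 and Col1a2, at means of 9756 and 6972 CPM in wild types, and its members were not uniform. Of the 7 tested, 0 were called by edgeR. All knockouts lay above all wild types in 4 (Cxcl12, Lepr, Kitl and Sp7), against 11.5% of all genes tested. They lay below in 1, Col1a1, against 10.4%. Libraries held 18716704 to 23575652 counts in total. They also fell into 2 sets by traces of other tissues: WT 1, 2, 3 and knockout A had 23 to 82 counts of the growth hormone gene Gh and 0 of the albumin gene Alb, while knockouts B and C had 0 of Gh and 46 and 36 of Alb.

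Lysosomal transcripts were abundant. The 41 genes together took 3.41% to 3.95% of all counts of a library. On the FPKM scale, which divides by gene length and so allows genes to be compared, mean levels over the 6 libraries ran from 4.50 for Tfeb to 4190.4 for Lyz2, the lysozyme of macrophages and granulocytes. Next came Psap at 1834 FPKM, the precursor of the saposins that help to break down sphingolipids, and the proteases Ctsb and Ctsd at 1492 and 1170.3 FPKM. The protease Ctss was at 765 FPKM, the macrophage glycoprotein Cd68 at 685, Lamp1 at 647 and Grn, the precursor of granulins, at 568. The hydrolases thus spanned 16.96 FPKM, for the galactosidase gene Gla, to the level of Lyz2. Pump subunits were lower and closer together, from 8.27 FPKM for Atp6v1h to 142 for Atp6ap1. The ion channels and transporters of the membrane, at 9.27 to 26.6 FPKM, were lower than the membrane glycoproteins, at 67.3 to 685 FPKM.

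**Figure D1:**
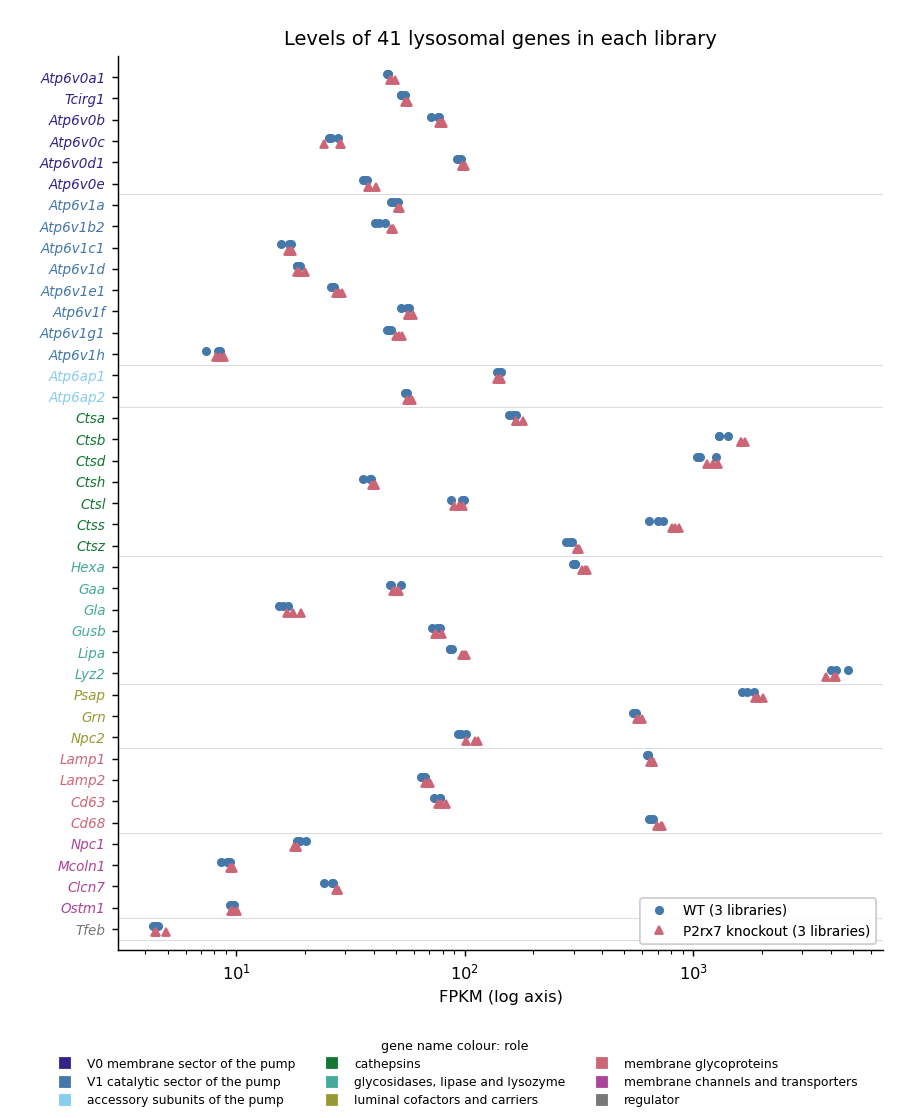
FPKM of each of the 41 genes in each library on a log axis, with wild types as circles and knockouts as triangles and the gene names coloured by role. Lyz2 lies farthest to the right and Tfeb farthest to the left, and for most genes the symbols of both genotypes lie close together.

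None of the 41 genes differed between genotypes at an adjusted p below 0.05 by edgeR. In edgeR's quasi-likelihood test over 15478 genes, 0 of the 41 passed, against 0.103% of all genes tested, and the lowest adjusted p among them was 0.159, for Ctss and for the lipase gene Lipa. An unadjusted p below 0.05 was found in 11 of the 41 (26.8%), against 16.6% of all genes tested. All 11 were higher in knockouts, and 8.35% of all genes tested were higher with such a p. DESeq2 called 3 of the 41, all higher: Ctsb, Ctss and Lipa (adjusted p = 0.000231, 0.00609 and 0.00967), while it called 1.69% of all 30301 genes it was run on. The edgeR fit without a filter on low counts called Ctsb and Ctss (adjusted p = 0.0203 and 0.0219), and 2 of 41 is near its share over all genes, 3.2%. Both shares are over 30301 genes, including those that the filter on low counts removed, so they are not matched for level.

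The differences were small and lay mostly on one side. Fold changes are given as log2 of knockout over wild type. They were positive in 38 of the 41 genes, against 51.2% of all genes tested, with a median of 0.07 (5.27%) against 0.00 over all genes. All 3 knockouts lay above all 3 wild types in 22 of the 41, against 11.5% of all genes tested and 11.4% of the 6977 genes whose mean CPM was at least that of Tfeb, the lowest of the 41, a background added after the data were seen. All 3 knockouts lay below in 1, Npc1, against 10.4% of all genes tested. By library totals without TMM, also added later, these counts were 23 above and 0 below, and by the deposited FPKM they were 20 and 1. The 41 genes share the same 6 mice, so they are not separate observations of the genotypes.

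**Figure D2:**
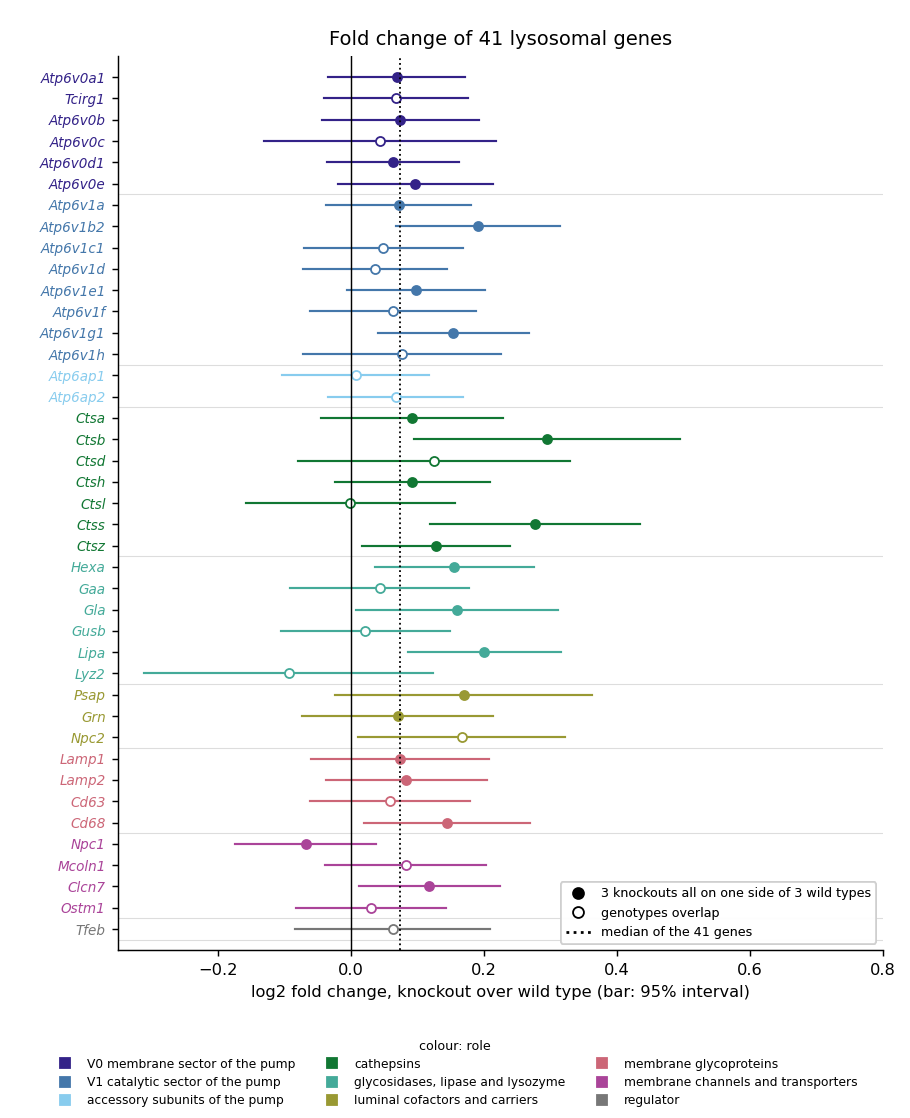
Log2 fold change of each gene, knockout over wild type, with its 95% interval, coloured by role; filled symbols mark genes whose 3 knockouts all lie on one side of the 3 wild types. The symbols of 38 genes lie to the right of 0, and the largest values are those of Ctsb and Ctss.

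The shift was larger in knockouts B and C than in knockout A. Relative to the wild-type mean, the median log2 level of the 41 genes was 0.05 in knockout A, 0.10 in knockout B and 0.10 in knockout C, and 0.02, -0.00 and -0.01 in WT 1, 2 and 3. Above every wild type stood 24 of the 41 genes in knockout A, 33 in knockout B and 34 in knockout C. The same held for 26.1%, 32.2% and 30.5% of all genes with counts in every library. Among the 4 libraries that held Gh, where knockout A alone stands against 3 wild types, the median of the 41 was 0.04 and 33 were positive. When the fit held a term for these sets it was 0.05, again with 33 positive. Both fits rest on knockout A alone against the wild types, so only the fold changes of the 41 are given for them. For knockouts B and C, the genotype and the set of libraries cannot be told apart.

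**Figure D3:**
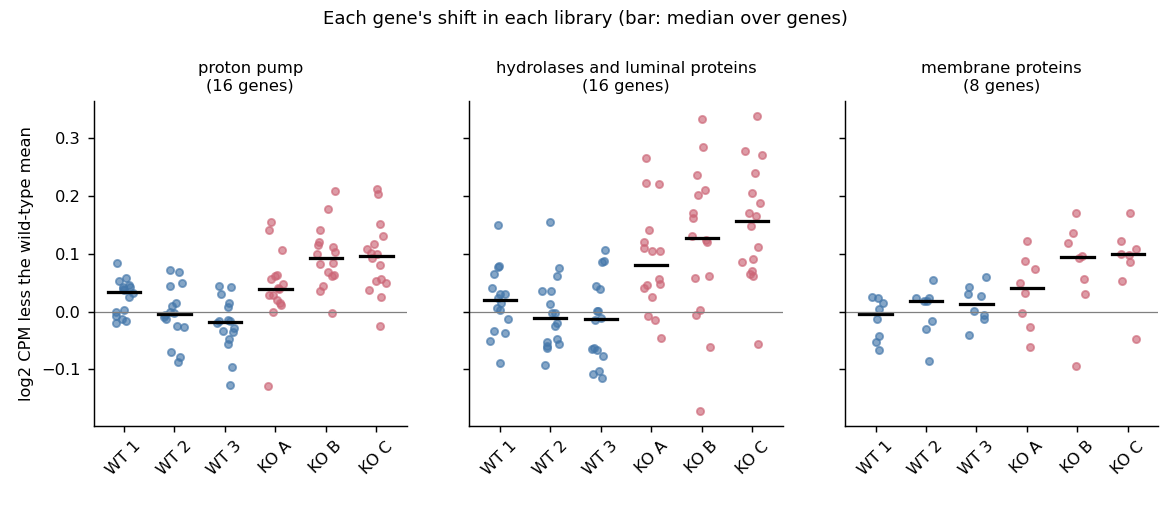
Log2 CPM of each gene less its wild-type mean, in each library, for the pump, the hydrolases and luminal proteins, and the membrane proteins; bars are medians over genes. In each panel knockout A has the lowest median of the knockouts, and in the pump panel it lies at 0.04, close to WT 1 at 0.03.

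The mean summed level of the 16 macrophage and monocyte markers was 1.10 times as high in knockouts as in wild types, but its members were not uniform. The genotypes were apart only by a narrow margin, with knockout C at 10579 CPM and WT 1 at 10557 CPM. Among them 11 were positive and 5 negative, against 51.2% positive over all genes tested. The 2 called by edgeR, Cd163 and Vsig4, were lower in knockouts (log2 fold changes -0.74 and -1.98), against 0.103% of all genes tested called in either direction. In these 2 all knockouts lay below all wild types, against 10.4% of all genes tested. In 3 of the 16 markers (18.75%) all knockouts lay above all wild types, against 11.5% of all genes tested. These were Cd5l, Mrc1 and Fcgr1, with log2 fold changes of 1.32, 0.17 and 0.17 and adjusted p-values of 0.136, 0.372 and 0.196 (edgeR). Cd5l, a protein secreted by macrophages, was at 151, 152 and 294 CPM in WT 1 to 3 against 412, 636 and 441 CPM in knockouts A to C. Knockout C and WT 1 differed by more in Cd5l alone than in the sum of the list. C1qa, a complement component made by tissue macrophages, was at 1602, 1628 and 1530.3 CPM in WT 1 to 3 against 1785, 1761 and 1540.3 CPM in knockouts A to C, so that knockout C lay among the wild types. The 10 osteoclast markers summed to 182 to 219.6 CPM in wild types and 228 to 257 CPM in knockouts, and the defining osteoclast genes Dcstamp and Calcr had at most 2 counts in any library. Of the 7 tested, 1 was called by edgeR, Atp6v0d2, higher in knockouts, against 0.103% of all genes tested. All knockouts lay above all wild types in 3, Acp5, Ctsk and Atp6v0d2, against 11.5% of all genes tested. They lay below in 1, Oscar (log2 fold change -0.58, 7 to 13 counts), against 10.4%. Nfatc1, the highest of the 10 in CPM, was at -0.02. The part of either cell type in the lysosomal values was not tested. In bulk RNA, fewer cells of a type and less RNA per cell cannot be told apart.

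Among the hydrolases and luminal proteins the median log2 fold change was 0.13, the largest of the 3 classes, with 14 of 16 positive. All knockouts lay above all wild types in 10 of 16, against 11.5% of all genes tested. The range was also the widest, from -0.09 to 0.29. The difference between classes was not tested.

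Ctsb encodes cathepsin B, a cysteine protease, and lies on chromosome 14 at 63122462 to 63145923 (GRCm38, plus strand). It stood at 7931, 7826 and 8606 CPM in WT 1 to 3 against 9749.6, 9879 and 10256 CPM in knockouts A to C. The groups were apart, and the log2 fold change was 0.29 ± 0.09 (SE), with a 95% interval of 0.09 to 0.49 and an adjusted p of 0.189 (edgeR). Exons of Ctsb share 774 bases with Fdft1 on the other strand, which had at most 962 counts. Ctss, the cathepsin that cuts the invariant chain during antigen presentation, lies on chromosome 3 at 95526786 to 95556403, also on the plus strand. Its level was 959.8, 990.1 and 872 CPM in WT 1 to 3 against 1096, 1184 and 1139 CPM in knockouts A to C. Every knockout was above every wild type, with a log2 fold change of 0.28 ± 0.07 (SE) and an interval of 0.12 to 0.43. The neighbouring gene Ctsk, the collagen-degrading cathepsin of osteoclasts, lies 17.4 kb away. It was at 43.1, 37.6 and 47.1 CPM in WT 1 to 3 against 47.4, 49.9 and 56.4 CPM in knockouts A to C, and the values of WT 3 and knockout A nearly met (0.27 on the log2 scale, adjusted p = 0.239, edgeR).

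The other cathepsins had smaller fold changes. Ctsz, an exopeptidase, was at 402, 412 and 424 CPM in WT 1 to 3 against 443, 451 and 457 CPM in knockouts A to C (log2 fold change 0.13). Ctsh, an aminopeptidase, was at 175, 174 and 161 CPM in WT 1 to 3 against 175, 184 and 183 CPM in knockouts A to C, and the highest wild type was within 1 CPM of knockout A. Ctsa, the protective protein of galactosidase and neuraminidase, was at 771, 732 and 787 CPM in WT 1 to 3 against 789, 854 and 798 CPM in knockouts A to C. Its knockouts lay just above its wild types, and its exons overlap those of Pltp on the other strand, which had up to 3793 counts against at least 15391 of Ctsa. Without known strand, reads in the shared 495 bases cannot be told apart. The aspartic protease Ctsd was at 2469.7, 2927 and 2509.8 CPM in WT 1 to 3 against 2857, 2736 and 3027 CPM in knockouts A to C, where WT 2 lay among the knockouts. Ctsl had a log2 fold change of -0.00, or 0.02 by library totals, at 94.7 ± 6.32 FPKM in wild types and 94.2 ± 4.42 FPKM in knockouts (SD, n = 3), and the genotypes overlapped.

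Of the enzymes that act on sugars and lipids, Lipa and Hexa showed the clearest separation. Lipa, the acid lipase that frees cholesterol and fatty acids from lipoprotein esters, was at 599.7, 579 and 583 CPM in WT 1 to 3 against 684, 679 and 661 CPM in knockouts A to C. The knockouts were close together and above the wild types, with a log2 fold change of 0.20 ± 0.05 (SE) and an interval of 0.09 to 0.32. Hexa, the alpha subunit of beta-hexosaminidase, was at 613, 593 and 604 CPM in WT 1 to 3 against 649, 679 and 687 CPM in knockouts A to C (0.16 ± 0.05 (SE)). Gla, the alpha-galactosidase, was at 52.5, 54.6 and 50.1 CPM in WT 1 to 3 against 57.7, 54.7 and 63.2 CPM in knockouts A to C, where WT 2 and knockout B differed by less than 1 CPM. The glucosidase Gaa and the glucuronidase Gusb overlapped between genotypes, at 0.04 and 0.02 on the log2 scale. Lyz2 had the lowest fold change of the 41 genes. It was at 6305, 5505 and 5294 CPM in WT 1 to 3 against 5508, 5046 and 5471 CPM in knockouts A to C, a log2 fold change of -0.09 ± 0.09 (SE), with WT 1 highest and knockout B lowest. The near-identical gene Lyz1 lies 5.48 kb away and had 64 to 128 counts, against at least 94953 of Lyz2.

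All 3 luminal cofactors had positive fold changes. Psap was at 4756, 4442 and 5031 CPM in WT 1 to 3 against 5111, 5582 and 5314 CPM in knockouts A to C, so that WT 3 lay just under knockout A, with a log2 fold change of 0.17 ± 0.08 (SE). Grn was at 1909.8, 1944 and 1929 CPM in WT 1 to 3 against 1962, 2099 and 2012 CPM in knockouts A to C (0.07), again with the groups apart by a narrow margin. Npc2, the luminal carrier that hands cholesterol to Npc1, was at 528 ± 26.0 CPM in wild types and 593 ± 39.2 CPM in knockouts (SD, n = 3), and WT 1 lay above knockout A.

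**Figure D4:**
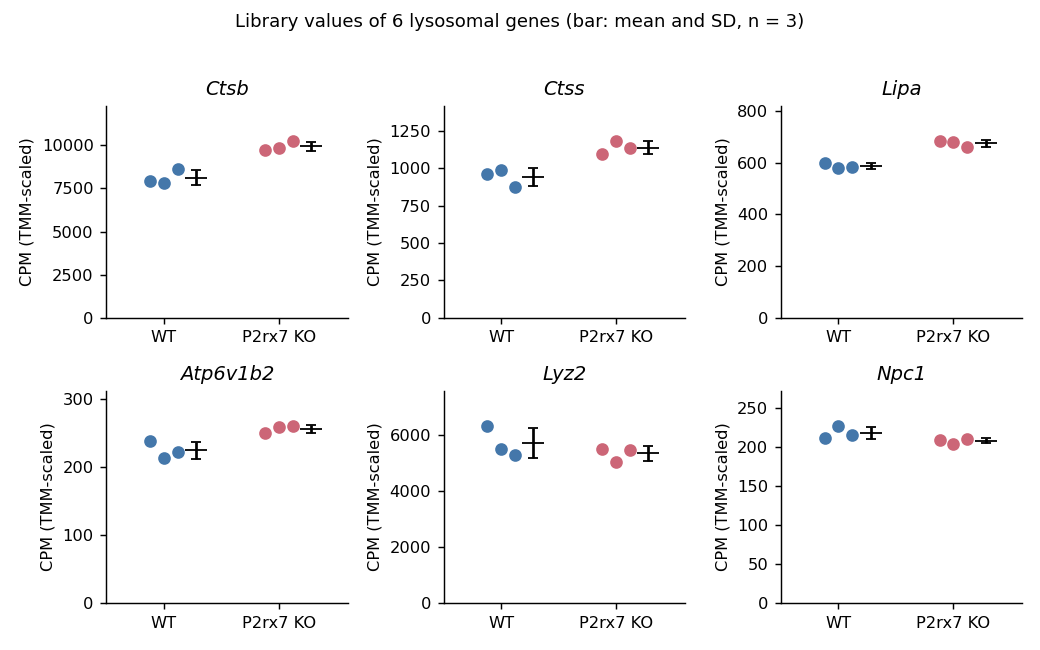
TMM-scaled CPM of 6 genes in each library, with the mean and SD of each genotype (n = 3) beside the points and axes that start at 0. Ctsb, Ctss, Lipa and Atp6v1b2 have all knockouts above all wild types, Lyz2 overlaps, and Npc1 has all knockouts below by a narrow margin.

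All 16 pump subunits had a positive fold change, from 0.01 to 0.19, although 3 of them turned negative in some of the 15 alternative settings. Atp6ap1 did so in 5 of them, and Atp6v0c and Atp6v1d did so without knockout C, among the 4 libraries with Gh and with a term for the sets, where Atp6v0c was at -0.13 in both of the latter fits. The median was 0.07, and 8 of 16 had all knockouts above all wild types, against 11.5% of all genes tested. In knockout A 9 of the 16 stood above every wild type, against 15 in knockout B and 14 in knockout C, where all genes gave 26.1%, 32.2% and 30.5%. In the V1 sector, Atp6v1b2, the nucleotide-binding B subunit, differed most. It was at 238, 214 and 222 CPM in WT 1 to 3 against 250.1, 259.6 and 260.1 CPM in knockouts A to C, with all knockouts above all wild types, a log2 fold change of 0.19 ± 0.05 (SE), an interval of 0.07 to 0.31 and an adjusted p of 0.180 (edgeR). Its catalytic partner Atp6v1a was at 297, 306 and 287 CPM in WT 1 to 3 against 307, 311 and 318 CPM in knockouts A to C (0.07), where WT 2 and knockout A were about 1 CPM apart. Atp6v1g1, a subunit of the outer stalk, was at 54.2, 52.6 and 51.5 CPM in WT 1 to 3 against 58.2, 57.2 and 60.8 CPM in knockouts A to C (0.15 ± 0.05 (SE)). Atp6v1e1, its partner in that stalk, was at 108, 108 and 109.7 CPM in WT 1 to 3 against 112, 116 and 121 CPM in knockouts A to C (0.10). Both stalk subunits kept the genotypes apart. The small subunit Atp6v1f was at 60.0, 55.4 and 60.2 CPM in WT 1 to 3 against 59.7, 60.3 and 63.4 CPM in knockouts A to C, and the genotypes overlapped. They also overlapped in Atp6v1c1, Atp6v1d and Atp6v1h, with log2 fold changes of 0.05, 0.04 and 0.08.

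In the V0 sector the 6 fold changes lay within 0.04 to 0.10, and the interval of each included 0. Atp6v0d1, which links V0 to the central stalk, was at 167, 168 and 173 CPM in WT 1 to 3 against 174, 182 and 175 CPM in knockouts A to C. Atp6v0b, a proteolipid of the rotating ring, was at 158, 145 and 159 CPM in WT 1 to 3 against 160.3, 166 and 159 CPM in knockouts A to C. In both genes the lowest knockout lay within about 2 CPM of the highest wild type. Atp6v0a1, the a1 form of the subunit that carries the proton channel, was at 300.0, 302 and 303 CPM in WT 1 to 3 against 325, 315 and 309 CPM in knockouts A to C. Atp6v0e was at 139, 133 and 134 CPM in WT 1 to 3 against 141, 153 and 141 CPM in knockouts A to C. For Atp6v0e, WT 1 lay about 1 CPM under knockouts A and C. The main ring proteolipid Atp6v0c was at 26.4 ± 1.33 FPKM in wild types and 27.1 ± 2.49 FPKM in knockouts (SD, n = 3), and the a3 form Tcirg1, which osteoclasts need for bone resorption, was at 53.4 ± 1.36 FPKM in wild types and 55.7 ± 0.927 FPKM in knockouts (SD, n = 3). Both overlapped between genotypes. Of the accessory subunits, Atp6ap1 was at 436, 431 and 418 CPM in WT 1 to 3 against 431, 439 and 421 CPM in knockouts A to C and Atp6ap2, also known as the prorenin receptor, at 148, 143 and 142 CPM in WT 1 to 3 against 146, 153 and 155 CPM in knockouts A to C. The log2 fold change of Atp6ap1 was 0.01, the closest to 0 among the pump subunits.

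Some subunits exist in several forms, encoded by separate genes. The a subunit was mostly shared by 2 forms: Tcirg1 made up 48.8% ± 0.921 of its summed FPKM in wild types and 49.1% ± 0.982 in knockouts, and Atp6v0a1 42.1% ± 0.743 and 42.4% ± 1.16 (SD, n = 3). Atp6v1b1, Atp6v1e2 and Atp6v1g3, forms known from kidney, testis and other specialised cells, had at most 2 counts in any library. Atp6v0d2, the d form abundant in osteoclasts and also made by macrophages, rose in knockouts (log2 fold change 1.06 ± 0.12 (SE), adjusted p = 0.0318, edgeR). It is not one of the 41 genes, and it is one of the 10 osteoclast markers summed above. Its share of d subunit FPKM was 6.51%, 7.37% and 6.21% in WT 1 to 3 against 13.5%, 10.3% and 13.7% in knockouts A to C. The lowest knockout share exceeded the highest wild-type share, with p = 0.1 in a two-sided exact permutation test, which cannot go lower with 3 libraries against 3. In the same test p was also 0.1 for the shares of Atp6v0e and Atp6v1c2, higher in knockouts. It was 0.1 as well for those of Atp6v0a2, Atp6v0d1, Atp6v0e2 and Atp6v1c1, lower in knockouts. The Benjamini-Hochberg p of 0.214 over 15 shares could not fall below 0.1 either. These 15 are not separate tests, since the shares of a subunit add up to a fixed total. Without 1 library the adjusted p of Atp6v0d2 ran from 0.0216 to 0.128, and it exceeded 0.05 without WT 1 and without knockout A, B or C (0.0717, 0.0521 and 0.109 for the knockouts). The call was also lost in both limma fits (adjusted p = 0.0761 and 0.0886), among the 4 libraries with Gh (log2 fold change 1.16, adjusted p = 0.516) and with a term for the sets (1.16, adjusted p = 0.230). Without the filter on low counts edgeR called Atp6v1c2 higher as well. Atp6v0e2 was lower in all knockouts than in all wild types, at 27 to 63 counts (log2 fold change -0.51 ± 0.20 (SE), adjusted p = 0.264, edgeR).

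**Figure D5:**
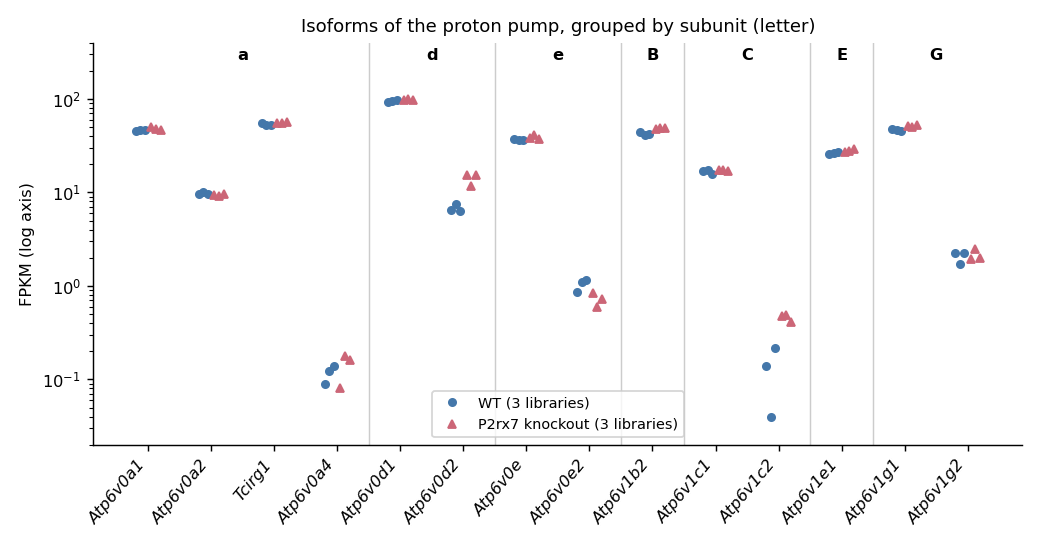
FPKM of pump isoforms in each library on a log axis, grouped by subunit, with wild types as circles and knockouts as triangles. Atp6v0d1 stays near the same level in all libraries. Atp6v0d2 lies lower than Atp6v0d1 everywhere and higher in all knockouts than in all wild types. Atp6v1c2, which had 2 to 23 counts, also lies higher in all knockouts, and Atp6v0e2, which had 27 to 63 counts, lies lower in all of them.

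Membrane proteins had a median log2 fold change of 0.08, with 7 of 8 positive. Cd68 was at 812, 829 and 815 CPM in WT 1 to 3 against 870.4, 922 and 922 CPM in knockouts A to C, with a log2 fold change of 0.14 ± 0.05 (SE) and all knockouts above all wild types. Lamp1 was at 1707, 1670.3 and 1689.5 CPM in WT 1 to 3 against 1776, 1805 and 1751 CPM in knockouts A to C (0.07). Lamp2, which also serves chaperone-mediated autophagy, was at 627, 613 and 637 CPM in WT 1 to 3 against 639.7, 679 and 669.9 CPM in knockouts A to C (0.08). In Lamp2 knockout A lay within 3 CPM of WT 3, while in Lamp1 the gap between the genotypes was wider. Cd63, a tetraspanin of late endosomes, overlapped between genotypes (0.06), and a pseudogene of it, Cd63-ps, had 869 to 1056 counts against 5411 to 6672 of Cd63, so that its value is less certain. Clcn7 encodes the chloride-proton exchanger of lysosomes and of the osteoclast's bone-facing membrane. It was at 129, 137 and 139 CPM in WT 1 to 3 against 147, 149 and 145 CPM in knockouts A to C (0.12 ± 0.05 (SE)), with all knockouts above all wild types. Its partner protein Ostm1 was at 69.2 ± 1.69 CPM in wild types and 70.7 ± 2.75 CPM in knockouts (SD, n = 3), and the genotypes overlapped, as they did for the calcium channel gene Mcoln1 (0.08). Npc1, which exports cholesterol from the lysosome, was the one gene with all knockouts below all wild types. It was at 211, 226 and 215 CPM in WT 1 to 3 against 208, 204 and 210.2 CPM in knockouts A to C, where WT 1 and knockout C differed by less than 1 CPM, and its log2 fold change was -0.07 ± 0.05 (SE). Exons of Npc1 share 511 bases with Rmc1 on the other strand, which had up to 849 counts against at least 3831 of Npc1. Tfeb was at 25.1, 24.3 and 25.6 CPM in WT 1 to 3 against 27.7, 25.5 and 25.1 CPM in knockouts A to C, and the genotypes overlapped.

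A sequence that Tfeb and its relatives are known to bind was frequent at the starts of these genes. The search covered 250 bases before to 50 bases after each start in RefSeq (GRCm38.p6), where 34 of the 41 genes had an entry. Atp6v1b2, Atp6v1c1, Atp6v1g1, Atp6v1h, Ctsb, Ctsh and Npc1 had none. The letters CACGTG, the E-box core, read the same on both strands. They occurred in 12 of the 34 genes (35.3%) and in 8.09% of all 27025 genes with an entry. The share was 11.5% in tested genes and 12.7% in those with a CPM of at least that of Tfeb. The longer form TCACGTGA, which contains the core, is also the same on both strands and occurred in 8 of the 34 (23.5%). It occurred in 1.12% of all genes, in 2.12% of tested genes, and in 2.56% of those with a CPM of at least that of Tfeb. The 8 genes were 3 of 12 pump genes, 3 of 14 hydrolase genes and 2 of 7 membrane protein genes. In all, 7 motifs were searched on both strands, and TCACGTGA was chosen for display after its counts were seen. Of the rest, TCACGTG occurred in 11 of the 34 (4.29% of all genes, 6.78% of tested genes, 8.03% of those at the CPM of Tfeb or above). TCATGTGA occurred in 4 (1.15% of all genes), GTCACGTGAC in 0 (0.370%), CCAAT in 13 (41.1%) and TATAAA in 3 (15.7%). The matches are shown because genes of all 3 classes share them. Each is read 5′ to 3′ along the gene, with the 8 matching bases in capitals:

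Atp6v0d1, chr8:105566050-105566079, minus strand: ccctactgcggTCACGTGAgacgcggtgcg

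Atp6v0e, chr17:26676387-26676416, plus strand: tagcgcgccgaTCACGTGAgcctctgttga

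Atp6v1a, chr16:44139373-44139402, minus strand: ttttttttaaaTCACGTGAtaggcttaacg

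Ctsa, chr2:164833749-164833778, plus strand: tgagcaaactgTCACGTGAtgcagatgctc

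Ctsa, second match, chr2:164833766-164833795, plus strand: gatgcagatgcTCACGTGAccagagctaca

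Ctsd, chr7:142387908-142387937, minus strand: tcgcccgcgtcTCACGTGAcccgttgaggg

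Gla, chrX:134601215-134601244, minus strand: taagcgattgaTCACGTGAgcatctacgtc

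Gla, second match, chrX:134601182-134601211, minus strand: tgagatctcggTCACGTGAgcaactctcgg

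Mcoln1, chr8:3500462-3500491, plus strand: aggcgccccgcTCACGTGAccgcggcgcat

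Clcn7, chr17:25133386-25133415, plus strand: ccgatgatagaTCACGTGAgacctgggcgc

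By the exons of the deposited table, the matches of Atp6v0e, Ctsa, Ctsd, Mcoln1 and Clcn7 lie in an exon, that of Atp6v1a lies in an intron, and those of Atp6v0d1 and Gla lie outside the gene. The bases beside the matches differ from gene to gene. The median log2 fold change was 0.09 in the 8 with TCACGTGA (0.06 to 0.16) and 0.07 in the 26 without it. Within the hydrolases it was 0.125 in the 3 with it and 0.128 in the 11 without it. Among the companion genes described next it was 0.02 in the 9 with it and 0.06 in the 79 without it. These differences were not tested. A match is a description of the letters and does not show binding.

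Other lysosomal genes, from lists of 123 companion genes of which 113 were tested, also had mostly positive fold changes. Of these 113, 1 was called higher by edgeR, Atp6v0d2, and 0 lower, against 0.103% of all genes tested called in either direction. At an unadjusted p below 0.05 there were 25, against 16.6% of all genes tested. Positive fold changes were found in 81, with a median of 0.06. All knockouts lay above all wild types in 28, against 11.5% of all genes. Of 38 other hydrolases 0 were called by edgeR and 31 were positive, with a median of 0.11. An unadjusted p below 0.05 was found in 11, all higher, against 8.35% of all genes tested that were higher with such a p. DESeq2 called 2 of these hydrolases, Lgmn and Acp5, both higher, against 1.69% of all genes it was run on. Lgmn, the asparagine-specific protease legumain and the most abundant of this list at 659 FPKM, was at 1392, 1418 and 1443 CPM in WT 1 to 3 against 1577, 1696 and 1678 CPM in knockouts A to C. All knockouts lay above all wild types (0.22 ± 0.06 (SE), adjusted p = 0.180, edgeR). The ceramidase gene Asah1, next in level, was at 0.01 on the log2 scale. The smallest p-values in this list belonged to Acp5, the tartrate-resistant phosphatase of osteoclasts, and Idua, the iduronidase. Acp5 was at 2.51, 2.83 and 2.93 CPM in WT 1 to 3 against 5.49, 4.09 and 6.42 CPM in knockouts A to C (adjusted p = 0.125), and its 3 knockouts lay above its 3 wild types at a low level. Idua was at 61.6, 58.6 and 66.0 CPM in WT 1 to 3 against 69.3, 74.9 and 73.7 CPM in knockouts A to C (0.23, adjusted p = 0.163).

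Of 28 other membrane proteins 0 were called by edgeR or DESeq2 and 21 were positive, with a median of 0.05. An unadjusted p below 0.05 was found in 5 (17.9%), close to the 16.6% of all genes tested. The abundant Laptm5 and Laptm4a had log2 fold changes of 0.05 and 0.05. The smallest p-values were those of Slc15a4, a transporter of peptides and histidine, higher in all knockouts (0.20 ± 0.05 (SE)), and Clcn6, lower in all knockouts (-0.21 ± 0.06 (SE)), at adjusted p-values of 0.161 and 0.192 (edgeR). In the 7 luminal accessory proteins 0 were called by edgeR or DESeq2 and 5 were positive. An unadjusted p below 0.05 was found in 2 (28.6%), against 16.6% of all genes tested. Gm2a, the activator that presents ganglioside to beta-hexosaminidase, was at 238, 226 and 252 CPM in WT 1 to 3 against 271, 283 and 261 CPM in knockouts A to C. Its knockouts were above its wild types, as were those of Hexa, the enzyme it serves. Creg1 and Epdr1 had log2 fold changes of -0.01 and 0.25. Of the 14 other pump isoforms and assembly factors that were tested, 1 was called by edgeR, against 0.103% of all genes tested. In these 14, 9 were positive and the median was 0.05. All knockouts lay above all wild types in 4 and below in 2, against 11.5% and 10.4% of all genes tested. The most abundant of this list, Oxr1 and Ccdc115, had log2 fold changes of 0.02 and 0.07.

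Replicates of the 41 genes lay close together. The coefficient of variation among the 3 wild types was 0.507% to 9.60%, with a median of 3.50%, against 7.87% over all genes tested. Only 6977 of the 15478 genes tested had a mean CPM of at least that of Tfeb, so this comparison is not matched for level. The median standard error of the log2 fold change was 0.052 in the 41, 0.061 in these 6977 genes and 0.092 over all genes tested. Standard errors of the log2 fold change were 0.04 to 0.09. The highest upper bound of a 95% interval was 0.49, for Ctsb, a 1.41-fold increase, and the lowest lower bound was -0.31, for Lyz2. A p above the threshold does not show that a level was the same in both genotypes.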

How the data were processed

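RNA was purified with a Qiagen RNeasy kit, and 1.3 µg of total RNA entered libraries made with a SMARTer kit, per the labels' protocols. Coordinates follow GRCm38 (mm10), per the submitters' processing notes. Which aligner and counter were run, and whether strand was used, is not given in the sources used here. Raw counts and FPKM values per gene symbol were deposited by the authors for each of the 6 libraries. The deposited FPKM values equal count per exon length and effective library size.

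Counts were tested with edgeR 4.0.16 in R 4.3.3 on 15478 genes kept by filterByExpr, with TMM scaling, glmQLFit and glmQLFTest, two-sided, and Benjamini-Hochberg adjustment over all tested genes (threshold 0.05). Standard errors are those implied by the test. The script was tested on simulated data. Estimates were close to the simulated fold changes, but a first criterion, that nearly all changed genes be called, was not met at the smallest simulated fold change and was kept only for larger ones. Every fold change among the 41 genes is below that smallest size. The simulation gave all genes the same spread between replicates rather than the spread seen in the 41. It therefore does not give the chance of a call among them. The absence of edgeR calls among the 41 does not show that levels were the same. DESeq2 1.42.0, limma 3.58.1 and other settings made up 15 alternatives. Labels pair no samples, and replicates are separate mice.

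The members and lists were chosen with earlier results of these data known. Values in every sample are given for genes of the 41 whose genotypes do not overlap and for the 2 of highest FPKM in each role. From companion lists the genes called, or else the 2 of smallest p, and the 2 of highest FPKM are named, as are neighbours, overlapping genes and pump isoforms. Cell type lists cover macrophages and monocytes, osteoclasts, mature neutrophils, neutrophil precursors, stroma and osteoblasts, erythroid cells, B lineage, plasma cells, T and NK cells, megakaryocytes and endothelium. Summed levels of the lists not given above were, in wild types and knockouts, 275 to 390 and 232 to 337 CPM for mature neutrophils, 111 to 462 and 113 to 667 for neutrophil precursors, 155 to 187 and 176 to 195 for plasma cells, 222 to 254 and 202 to 298 for megakaryocytes, 67.0 to 139 and 68.8 to 136 for endothelium, 7.01 to 12.4 and 6.92 to 11.6 for T and NK cells, 0.901 to 1.25 and 1.17 to 1.85 for B lineage, and 0.250 to 0.431 and 0.269 to 0.802 for erythroid cells. The plasma cell sum was mostly Sdc1, at means of 160 CPM in wild types and 170 CPM in knockouts. Of the 3 plasma cell genes tested, 1 was called by edgeR, Jchain, against 0.103% of all genes tested. Jchain had 6, 17 and 33 counts in WT 1 to 3 against 231, 208 and 248 in knockouts A to C (log2 fold change 3.75, adjusted p = 0.014, edgeR). Mzb1 and Tnfrsf17 had at most 2 counts in any library.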

Additional observations from a re-analysis of the deposited data

How the results depend on the processing

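The 16 genes called over the whole table became 970 without a filter on low counts, 511 with DESeq2, 10 and 2 with limma on log2(FPKM + 1) and log2(FPKM + 0.1), and 0 both among the 4 libraries with Gh and with a term for the 2 sets of libraries. Leaving out 1 library gave 0 to 172: leaving out WT 1, 2 or 3 gave 5, 45 and 172, and leaving out knockout A, B or C gave 8, 0 and 0. Of the 41 lysosomal genes, 2 were called without the filter and 3 with DESeq2, against 0 in the report. None was called in any fit that left out 1 library (0 to 0), where the lowest adjusted p among them was 0.106 to 0.497. Median log2 fold changes were lower, at 0.036 for the pump, 0.077 for the hydrolases and 0.037 for the membrane proteins among the 4 libraries with Gh, and 0.080 and 0.040 for the latter classes with the set as a term. These 2 fits rest on knockout A alone. The log2 fold change of P2rx7 was -0.69 to -0.65 when 1 library was left out, and P2rx7 lost its call without knockout B or C (-0.67 and -0.65), among the 4 libraries (-0.64) and with the set as a term (-0.64). The sign of Atp6ap1 changed in 5 of 15 alternatives (-0.000165 without the filter, -0.000220 and -0.000221 in the limma fits, -0.00691 without knockout B); with 1 library left out it ran from -0.00971 to 0.0237. Atp6v0c, Atp6v1d, Gusb, Cd63 and Ostm1 also turned negative among the 4 libraries and with the set as a term. Over the 29 genes with values in every sample and 15 alternatives, 425 values kept their sign and their side of the threshold, 5 passed it and 5 changed sign. Most of the 29 were picked because their genotypes do not overlap, so their sign without 1 library was largely fixed by that choice. The tally leaves out the other members, all with overlapping genotypes, and sign changes among those, such as Ctsl, Gusb and Atp6v0c. It does not describe all 41 genes. The cause of these changes was not tested. No paired analysis was possible because wild types are numbered and knockouts are lettered. The lowest count of any of the 41 genes in any library was 480.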

Other observations

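Lists were also made of genes that deliver hydrolases to the lysosome and of genes that sense its nutrient state. Of the 9 genes of mannose 6-phosphate sorting, 0 were called by edgeR or DESeq2, 5 were positive and the median log2 fold change was 0.02. Against 16.6% of all genes tested, 1 of the 9 (11.1%) had an unadjusted p below 0.05. That gene was Sort1, which encodes the sorting receptor sortilin. It was at 135, 102 and 129 CPM in WT 1 to 3 against 151, 167 and 139 CPM in knockouts A to C. All knockouts lay above all wild types, with WT 2 lowest, and edgeR without the filter on low counts called it higher (0.32 ± 0.11 (SE), adjusted p = 0.221 with the filter). M6pr, the small mannose 6-phosphate receptor, was at 221, 209 and 198 CPM in WT 1 to 3 against 222, 226 and 224 CPM in knockouts A to C (0.10), and the adaptor gene Gga1 had a log2 fold change of -0.01.

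Of 17 genes of the Tfeb family and of nutrient sensing at the lysosome, 0 were called by edgeR or DESeq2 and 10 were positive. Their median was 0.01, against 0.00 over all genes tested. Against 16.6% of all genes tested, 2 of the 17 (11.8%) had an unadjusted p below 0.05. These were Flcn, the folliculin gene, and Lamtor4, a subunit of the scaffold that holds mTORC1 at the lysosome, at 0.17 and 0.19 on the log2 scale (adjusted p = 0.288 and 0.292, edgeR). In both the genotypes overlapped. The GTPase genes Rragc and Rraga, the most abundant of this list, had values of 0.01 and -0.04.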
